A study of Mus musculus with 25 samples.

Results

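The cytochrome P450 family 2 genes (Cyp2) were taken as every row of the count table whose symbol starts with Cyp2 and a lower-case letter, leaving out pseudogenes. The rule gave 49 genes of 24537 in the table. Of the 49, 37 had enough counts to be tested and 12 did not, among which Cyp2b19 and Cyp2w1 had no count in any library. Liver RNA came from 24-month-old male mice of strain C57BL6/J in 4 groups: Rosa26KO mice on control diet (Control_Rosa26KO, n = 6), Rosa26KO mice on high-fat diet, or HFD (HFD_Rosa26KO, n = 6), p53KO mice on control diet (Control_p53KO, n = 6) and p53KO mice on high-fat diet (HFD_p53KO, n = 7). Rosa26KO, a knockout at the Rosa26 locus, served as the control genotype, so every mouse carried a knockout. The labels do not say how the knockouts were made, at what age or in which cells. They also do not say for how long the diets were fed or what they contained.

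Enzymes of this family sit in the endoplasmic reticulum, carry a haem group and take electrons from cytochrome P450 reductase to oxidise drugs, steroids, fatty acids and environmental chemicals. The liver holds most of them. Several are set by the nuclear receptors CAR and PXR, several differ between the sexes under the control of growth hormone, and several are made mainly in hepatocytes around the central vein of the lobule. In the mouse the genes lie in clusters of closely related copies. Of the 49 genes, 15 lay on chromosome 7 (Cyp2a, Cyp2b and others), 15 on chromosome 19 (Cyp2c), 9 on chromosome 15 (Cyp2d) and 7 on chromosome 4 (Cyp2j), while Cyp2u1, Cyp2w1 and Cyp2ab1 stood alone on chromosomes 3, 5 and 16.

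The promoters of 5 genes of the chromosome 7 cluster are shown because Cyp2b9 and Cyp2b13 rose with HFD and Cyp2b10 fell, and because Cyp2a4 and Cyp2a5 are a second near-identical pair. Each line gives the 250 bases before the RefSeq start, read 5′ to 3′ on the plus strand of GRCm38.p6. Capitals mark the nuclear receptor element AGGTCA. The windows are chr7:26173159-26173408 for Cyp2b9, chr7:26061245-26061494 for Cyp2b13, chr7:25897408-25897657 for Cyp2b10, chr7:26306942-26307191 for Cyp2a4 and chr7:26835089-26835338 for Cyp2a5.
Cyp2b9: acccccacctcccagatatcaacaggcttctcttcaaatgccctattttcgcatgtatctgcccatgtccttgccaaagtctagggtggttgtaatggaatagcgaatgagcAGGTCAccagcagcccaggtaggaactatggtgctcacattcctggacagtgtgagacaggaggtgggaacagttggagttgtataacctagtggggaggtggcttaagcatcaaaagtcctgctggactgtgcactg
Cyp2b13: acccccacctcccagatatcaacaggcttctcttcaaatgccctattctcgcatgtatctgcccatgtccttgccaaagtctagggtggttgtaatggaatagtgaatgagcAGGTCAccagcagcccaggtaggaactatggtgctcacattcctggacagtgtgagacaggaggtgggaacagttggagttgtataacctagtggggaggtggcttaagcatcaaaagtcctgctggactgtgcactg
Cyp2b10: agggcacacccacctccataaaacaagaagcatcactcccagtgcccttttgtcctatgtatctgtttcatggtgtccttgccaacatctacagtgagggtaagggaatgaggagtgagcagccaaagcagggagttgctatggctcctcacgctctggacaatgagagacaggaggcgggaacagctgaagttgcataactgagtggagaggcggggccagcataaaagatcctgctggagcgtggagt
Cyp2a4: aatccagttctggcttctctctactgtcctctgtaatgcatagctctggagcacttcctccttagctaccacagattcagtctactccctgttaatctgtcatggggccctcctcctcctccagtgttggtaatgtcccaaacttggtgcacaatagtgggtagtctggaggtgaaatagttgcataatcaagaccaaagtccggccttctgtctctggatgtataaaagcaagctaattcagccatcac
Cyp2a5: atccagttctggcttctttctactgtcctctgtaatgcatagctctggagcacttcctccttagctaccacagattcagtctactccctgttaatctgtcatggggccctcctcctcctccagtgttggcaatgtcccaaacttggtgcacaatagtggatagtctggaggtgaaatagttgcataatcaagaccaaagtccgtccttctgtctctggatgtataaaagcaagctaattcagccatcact

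The Cyp2b9 and Cyp2b13 windows were 99.2% identical, with 248 of 250 aligned bases shared and 1 AGGTCA at the same place, bases 138 to 133 before the start. The Cyp2b10 window had no AGGTCA and was 68.1% identical to each of them. The Cyp2a4 and Cyp2a5 windows were 97.6% identical and also had none. Of the 49 genes, 41 matched the RefSeq promoter table with 43 promoters. Both strands were searched for 4 motifs, none of which holds another. AGGTCA was present in 10 of the 43 Cyp2 promoters, against 14% of the upstream windows of all 32851 promoters. The STAT5 motif TTCNNNGAA was present in 2 of the 43 (Cyp2j11 and Cyp2j12), against 7.02% of all, and the D box TTATGTAA in 0 of the 43, against 0.819% of all. The HNF4 element CAAAGTCCA was present in 6, all of them Cyp2c genes (Cyp2c40, Cyp2c65, Cyp2c67, Cyp2c68, Cyp2c69 and Cyp2c70), against 0.384% of all. Of these 6, Cyp2c65 had too few counts to be tested, and 0 of the other 5 passed for diet averaged over genotypes in edgeR. A match of letters is a description of the window and not a shown binding site.

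Total counts per library ran from 16324283 to 21501281. Levels are given as CPM, read counts scaled to library size and by TMM. Trp53, the targeted gene, had a mean of 36.8 ± 4.80 CPM for Control_Rosa26KO and 37.1 ± 4.56 for HFD_Rosa26KO (SD, n = 6 each). It was lower in p53KO, with 24.1 ± 6.89 on control diet (SD, n = 6) and 26.1 ± 4.47 under HFD (SD, n = 7). Its genotype difference, a log2 fold change of -0.56 averaged over diets, had an adjusted p of 0.210 in edgeR. Libraries Control_p53KO 1 and 3 and HFD_Rosa26KO 6 stood apart by neutrophil markers: the 10 markers summed to 603 CPM in Control_p53KO 1 and 385 CPM in HFD_Rosa26KO 6, against group medians of 16.5 to 31.7 CPM. Acute phase genes were highest in Control_p53KO 1, Control_Rosa26KO 1 and HFD_p53KO 2 within their groups. Hepatocyte markers, of which 7 of 8 were in the table, summed to a median of 140900 CPM in Control_Rosa26KO (103600 to 161900), 89310 in HFD_Rosa26KO (64820 to 164700), 137800 in Control_p53KO (77860 to 140600) and 69920 in HFD_p53KO (55350 to 114800). Alb and Apoa1 fell with HFD and the other 5 did not pass the test. None was at 0 in all libraries of a group. Of 5 erythroid markers 4 rose with HFD, with summed medians of 1090, 1344, 946 and 1276 CPM for Control_Rosa26KO, HFD_Rosa26KO, Control_p53KO and HFD_p53KO and a highest sum of 8231 in HFD_Rosa26KO 1. Of 8 sinusoidal endothelial markers 1 (Clec4g) and of 8 stellate markers 1 (Reln) fell, and 0 markers of neutrophils, Kupffer cells, cholangiocytes or lymphocytes and 0 of 16 acute phase genes passed. The part of these shifts in the diet results was not tested. In whole liver, fewer cells of a type and less RNA per cell cannot be told apart.

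The share of all counts that the whole family took is a measure of its summed level. In Rosa26KO it held 1.38 ± 0.301% on control diet and 1.23 ± 0.184% on HFD (SD, n = 6 each). In p53KO it held 1.24 ± 0.358% on control diet (SD, n = 6) and 1.46 ± 0.405% on HFD (SD, n = 7), and the ranges of all 4 groups overlapped. Cyp2e1, which oxidises ethanol and other small molecules, alone gave 13.6% to 43.0% of the family's counts in a library. Per kilobase of exon, the mean level in Control_Rosa26KO was highest for Cyp2e1, at 2250 CPM per kb. Next came Cyp2f2 (678), Cyp2d26 (513), Cyp2c29 (454) and Cyp2d10 (452). Among tested genes with an exon length, Cyp2g1, Cyp2b13 and Cyp2s1 lay at less than 1. Cyp2c29 and Cyp2d10, neighbours in that order, differed by less than the spread between libraries, since the SD of Cyp2c29 in this group was 508 CPM around a mean of 1388 CPM. The 12 genes that were not tested had totals of 0 to 89 counts over all 25 libraries.

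**Figure D1:**
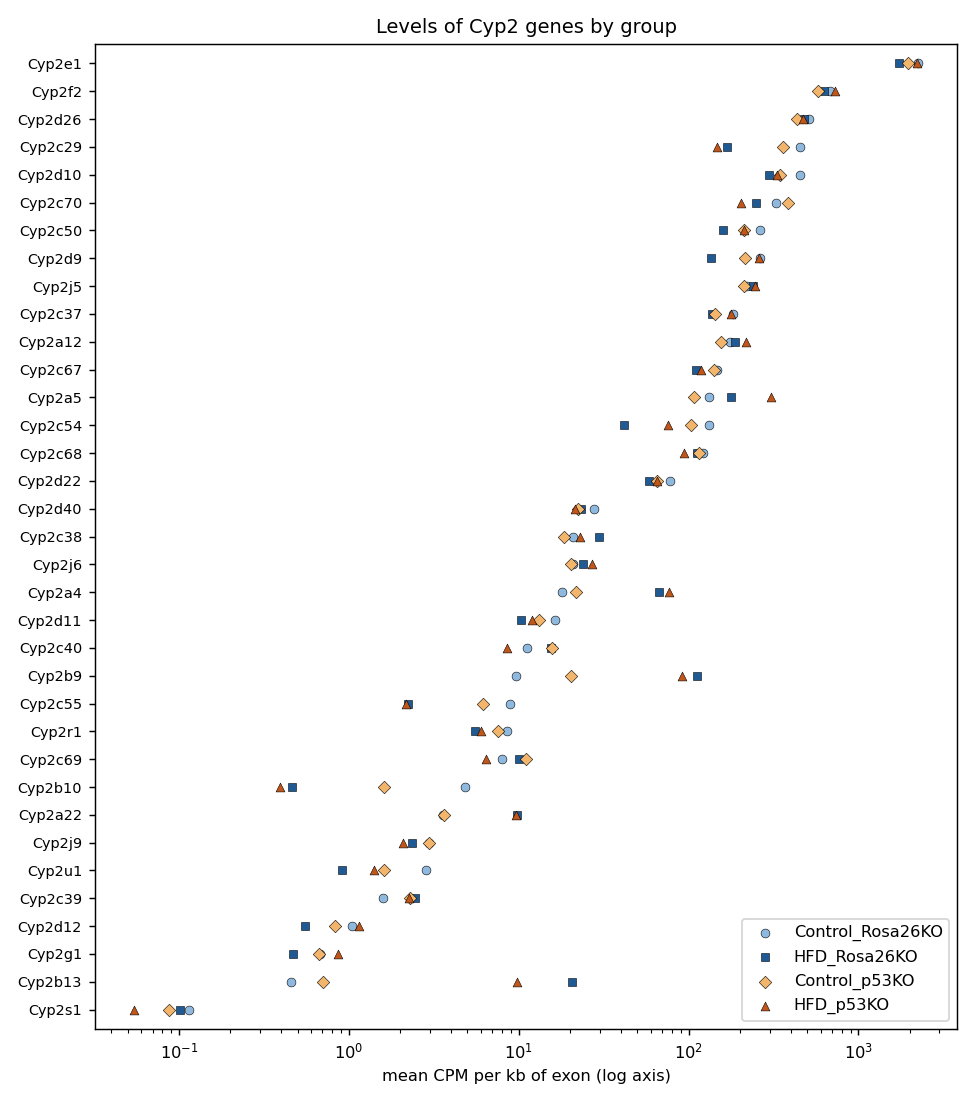
Mean level of each Cyp2 gene with an exon length and enough counts, in CPM per kb of exon on a log axis, with 1 symbol for each of the 4 groups. Cyp2e1 is highest in every group, and the largest distances between diets are those of Cyp2b9, Cyp2b13 and Cyp2b10.

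HFD moved this family in both directions. Averaged over both genotypes, 10 of the 37 tested genes passed the threshold (adjusted p under 0.05, edgeR quasi-likelihood test with Benjamini-Hochberg adjustment over all genes), which is 27.0%, against 9.71% of all 14133 genes tested. Of the 10, 5 rose (Cyp2b13, Cyp2b9, Cyp2a4, Cyp2a22 and Cyp2j6) and 5 fell (Cyp2b10, Cyp2c55, Cyp2c29, Cyp2c44 and Cyp2r1). Among all genes 4.64% rose and 5.07% fell. The median log2 fold change of the 37 genes was -0.21, beside -0.01 for all genes, and 12 of 37 lay above 0. Without the 3 libraries high in neutrophil markers 16 passed, these 10 among them. Without the 3 high in acute phase genes 8 passed, 7 of them among the 10, and without the libraries named 1941 to 1948 7 passed, 6 of them among the 10. On chromosome 7, 6 of 12 tested genes passed, on chromosome 19, 3 of 13, on chromosome 4, 1 of 3, and on chromosome 15, 0 of 8.

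**Figure D2:**
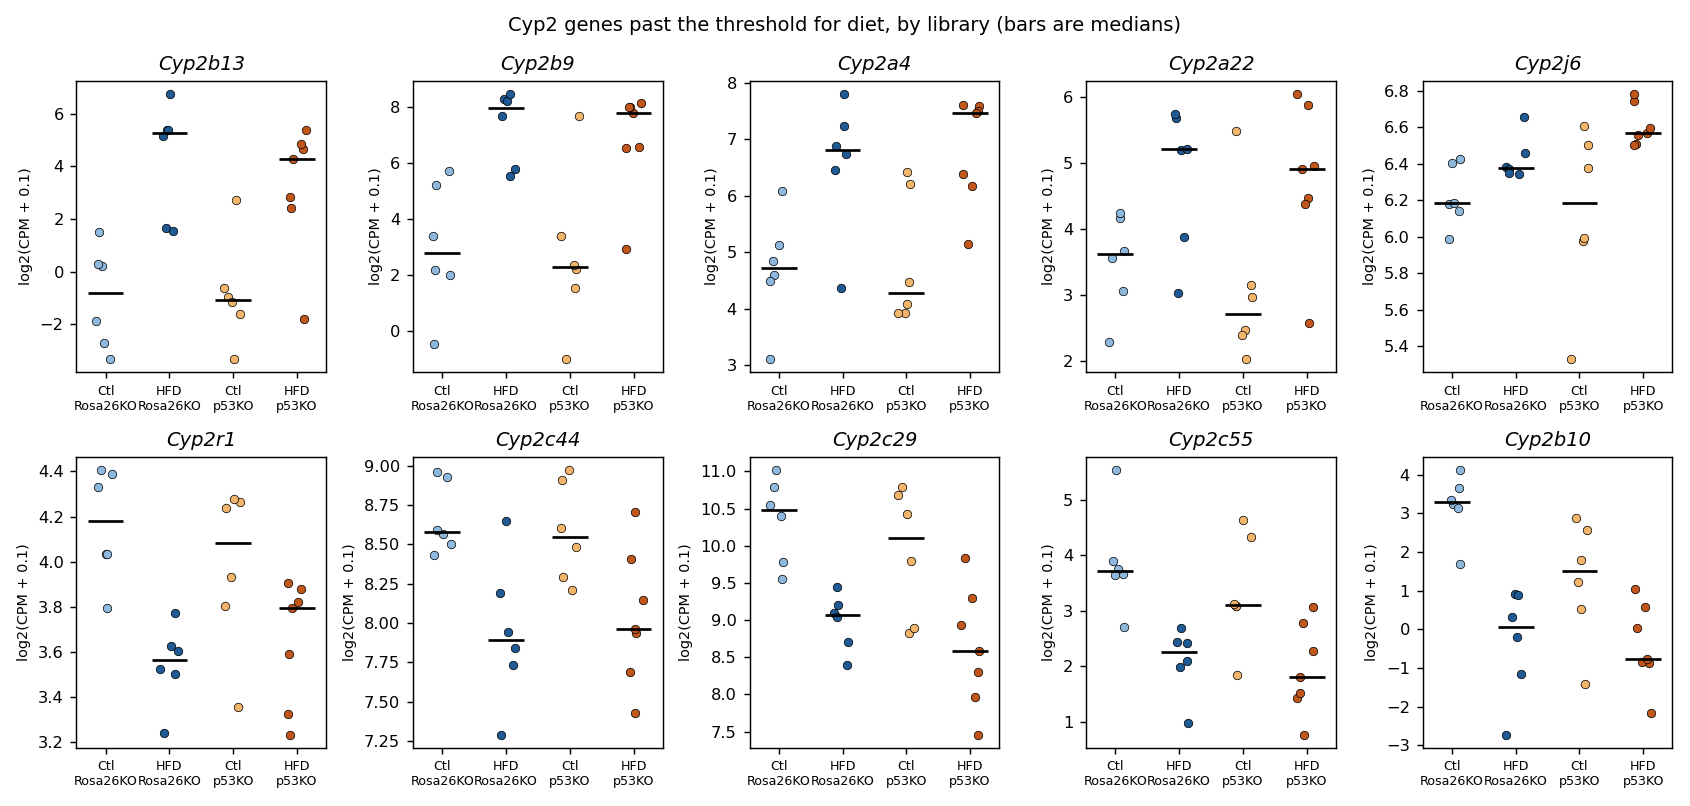
Level of the 10 Cyp2 genes that passed the threshold for diet, as log2(CPM + 0.1), with 1 point for each library and a bar at each group's median. Both HFD medians lie above both control-diet medians for Cyp2b13, Cyp2b9, Cyp2a4, Cyp2a22 and Cyp2j6 and below them for the other 5 genes.

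Genes known to be higher in female than in male mouse liver included the largest rises. Of 10 such Cyp2 genes, all tested, 4 rose (Cyp2b13, Cyp2b9, Cyp2a4 and Cyp2a22), 1 fell (Cyp2b10) and 5 did not pass the test, with a median log2 fold change of 0.36. The male-specific Cyp2d9, which hydroxylates testosterone, did not pass, with a log2 fold change of -0.34 (adjusted p = 0.329, edgeR). This average joins -0.95 in Rosa26KO (adjusted p = 0.0977, edgeR) and 0.27 in p53KO (adjusted p = 0.662, edgeR). DESeq2 called Cyp2d9 lower in Rosa26KO and limma voom did not. The fits without the libraries named 1941 to 1948 or without those high in acute phase genes also called it lower there. Of 9 tested female-biased genes outside the family, 4 fell (Cyp3a16, Cyp3a41a, Cyp3a41b and Cyp3a44) and 0 rose averaged over genotypes. In p53KO alone 3 of the 9 fell, and in Rosa26KO alone 0 passed. Among 11 male-biased genes outside the family, Cyp4a12b and Nudt7 fell and 0 rose averaged over genotypes. In Rosa26KO alone 1 of the 11 fell, and in p53KO alone 0 passed. The median of Cyp4a12b was 116 CPM in Control_Rosa26KO against 18.4 CPM in HFD_Rosa26KO. In p53KO the medians lay closer, at 73.6 CPM on control diet and 54.2 CPM on HFD. Nudt7 had a lower median on HFD in both genotypes. Of 6 tested genes of sex-dependent growth hormone signalling, Stat5a rose by 0.45 on the log2 scale averaged over genotypes (adjusted p = 0.00081, edgeR). Socs2, an inhibitor induced by that pathway, fell by 1.25 (adjusted p = 0.0167, edgeR). In Rosa26KO alone 0 of the 6 passed, and in p53KO alone 1 rose and 1 fell. Socs2 spanned 15.2 to 62.8 CPM in Control_p53KO and 4.43 to 13.3 CPM in HFD_p53KO, without overlap. Its Rosa26KO groups overlapped, at 5.48 to 28.5 CPM on control diet and 4.81 to 24.7 CPM on HFD. A difference in diet effect between genotypes passed for 0 of all genes in edgeR.

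Cyp2b13 (chr7:26061497-26096197, plus strand, GRCm38), a female-biased steroid and drug oxidase, was nearly silent on control diet. It ran from 0 through a median of 0.612 to 2.74 CPM in Control_Rosa26KO and from 2.81 through 38.7 to 107 CPM in HFD_Rosa26KO. In p53KO it ran from 0 through 0.374 to 6.44 CPM on control diet and from 0.185 through 19.5 to 42.2 CPM on HFD. Every HFD_Rosa26KO library lay above every Control_Rosa26KO library, while in p53KO the groups overlapped through the high Control_p53KO 4 and the low HFD_p53KO 7. The log2 fold change was 4.67 ± 0.794 (SE) averaged over genotypes (adjusted p = 0.000803, edgeR), 5.55 ± 1.18 in Rosa26KO (adjusted p = 0.0173) and 3.80 ± 1.07 in p53KO (adjusted p = 0.0528). Limma voom gave 5.33 for the average and did not call it.

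Cyp2b9 (chr7:26173411-26210661, plus strand), its neighbour with the near-identical promoter window, had a higher mean per kilobase of exon than Cyp2b13 in each of the 4 groups. The lowest, median and highest levels were 0.624, 7.38 and 52.0 CPM in Control_Rosa26KO and 45.4, 249.3 and 348 CPM in HFD_Rosa26KO. They were 0.401, 4.74 and 205 CPM in Control_p53KO and 7.41, 219 and 281 CPM in HFD_p53KO. The groups overlapped in both genotypes. In Rosa26KO HFD_Rosa26KO 6, at 45.4 CPM, lay below Control_Rosa26KO 5, at 52.0 CPM. In p53KO Control_p53KO 4 stood at 205 CPM with the next of its group at 10.2, and HFD_p53KO 7 at 7.41 CPM was the only HFD library below the lowest of HFD_Rosa26KO. The log2 fold change was 2.86 ± 0.799 (SE) averaged over genotypes (adjusted p = 0.0246, edgeR), and it was 4.39 without Control_p53KO 4. Within each genotype the change did not pass in edgeR, at 3.55 ± 1.18 in Rosa26KO (adjusted p = 0.118) and 2.17 ± 1.08 in p53KO (adjusted p = 0.283), while DESeq2 called it in Rosa26KO and limma voom in p53KO. A fit with a term for replicate number, and the fit without Control_p53KO 4, called it in both genotypes. Leaving out the libraries high in acute phase genes, or those named 1941 to 1948, ended its call averaged over genotypes, at 2.69 and 2.51.

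Cyp2b10 (chr7:25897620-25926624, plus strand), the classical target of CAR, went the other way from these neighbours. Its lowest, median and highest levels were 3.11, 9.75 and 17.3 CPM in Control_Rosa26KO and 0.0521, 0.963 and 1.79 CPM in HFD_Rosa26KO. In p53KO they were 0.277, 2.79 and 7.33 CPM on control diet and 0.124, 0.490 and 1.97 CPM on HFD. No HFD_Rosa26KO library reached the lowest Control_Rosa26KO library, whereas the p53KO groups overlapped. It fell by 2.69 ± 0.449 (SE) on the log2 scale averaged over genotypes (adjusted p = 0.000658, edgeR), by 3.36 ± 0.657 in Rosa26KO (adjusted p = 0.00967) and by 2.01 ± 0.618 in p53KO, where the adjusted p was 0.0733. Of 2103 windows of 75 bases in its exons, the read length here, 2.76% were identical in another gene, against 5.16% for Cyp2b9 and 16.4% for Cyp2b13, and for Cyp2b13 most of them were shared with Gm45225 (11.2% of its windows). How reads of such windows were assigned is not given in the sources used here.

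Cyp2a4 (chr7:26307169-26315088, plus strand), a steroid hydroxylase of female mouse liver, ran through lowest, median and highest levels of 8.57, 26.5 and 68.0 CPM in Control_Rosa26KO and 20.5, 112 and 222 CPM in HFD_Rosa26KO. In p53KO it ran through 15.0, 19.5 and 85.0 CPM on control diet and 35.4, 177 and 195 CPM on HFD. In Rosa26KO all HFD libraries except HFD_Rosa26KO 6 lay above the highest control library, and in p53KO 4 of 7 did. It rose by 1.86 ± 0.396 (SE) averaged over genotypes (adjusted p = 0.00433, edgeR). Cyp2a22 (chr7:26931631-26939384, minus strand) ran through 4.82, 12.2 and 18.8 CPM in Control_Rosa26KO, 8.08, 36.9 and 53.4 CPM in HFD_Rosa26KO, 4.004, 6.60 and 44.5 CPM in Control_p53KO and 5.86, 29.9 and 65.8 CPM in HFD_p53KO. All 4 groups overlapped. Its rise of 1.43 ± 0.412 (adjusted p = 0.0296, edgeR) lost its call when any of 8 libraries was left out (Control_Rosa26KO 1 and 6, Control_p53KO 2, 5 and 6, HFD_Rosa26KO 3 and 4, HFD_p53KO 6), with adjusted p up to 0.0556. The call was also lost without the libraries high in acute phase genes and without those named 1941 to 1948, at 1.33 in both and adjusted p up to 0.172.

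Cyp2a5 (chr7:26835305-26843548, plus strand), the coumarin hydroxylase whose promoter window is almost identical to that of Cyp2a4, did not pass the test. Its lowest, median and highest levels were 68.9, 265 and 423 CPM in Control_Rosa26KO, 61.1, 399 and 572 CPM in HFD_Rosa26KO, 93.8, 145 and 610 CPM in Control_p53KO and 287, 695 and 1094 CPM in HFD_p53KO. The p53KO diet groups overlapped only through Control_p53KO 4. The log2 difference was 0.97 ± 0.347 (SE) averaged over genotypes, with an adjusted p of 0.0798 in edgeR. It passed without Control_p53KO 4, without HFD_Rosa26KO 6, in DESeq2 and with a term for replicate number. Of the 75-base windows in their exons, 22.1% of those of Cyp2a4 and 22.3% of those of Cyp2a5 were identical in another gene, mostly each other.

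Of 6 Cyp2 genes known to be induced through CAR or PXR, all tested, 3 fell (Cyp2b10, Cyp2c29 and Cyp2c55) and 0 rose averaged over genotypes. All 6 log2 fold changes were below 0, with a median of -1.21 beside -0.01 for all genes. In p53KO alone 1 of the 6 lay above 0. The list was chosen with earlier results of these data known and is not a full account of such genes. It left out Cyp2a5, which stood at 0.97 averaged over genotypes. The receptors themselves did not pass the test: Nr1i3, which encodes CAR, had a log2 fold change of 0.44 (adjusted p = 0.306, edgeR) and Nr1i2, which encodes PXR, of 0.01 (adjusted p = 0.975, edgeR). Of 14 tested CAR and PXR targets outside the family, Cyp3a11 and Ces2a fell and Gsta1 rose, with 8 of 14 above 0 and a median of 0.04. Ces2a, a carboxylesterase, fell from 350.0 ± 56.8 to 85.9 ± 18.7 CPM in Rosa26KO (SD, n = 6 each). Cyp3a11, the main PXR-induced P450 of mouse liver, went from 3369 ± 1047 to 1503 ± 731 CPM in the same groups (SD, n = 6 each).

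Cyp2c29 (chr19:39269405-39330713, plus strand) is among the abundant Cyp2c enzymes and is made around the central vein. Its lowest, median and highest levels were 754, 1424 and 2075 CPM in Control_Rosa26KO and 335, 536 and 695 CPM in HFD_Rosa26KO. In p53KO they were 454, 1131 and 1769 CPM on control diet and 176, 384 and 911 CPM on HFD. The Rosa26KO groups did not overlap and the p53KO groups did. It fell by 1.36 ± 0.261 (SE) averaged over genotypes (adjusted p = 0.00221, edgeR), with similar values of -1.42 ± 0.379 in Rosa26KO (adjusted p = 0.0551) and -1.29 ± 0.360 in p53KO (adjusted p = 0.0510) that missed the threshold in each genotype alone in edgeR. DESeq2 called it in both genotypes, as did the fits with a term for replicate number or for runs of library names. Limma voom called it in neither.

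Cyp2c55 (chr19:39007019-39042693, plus strand), a CAR- and PXR-induced enzyme that hydroxylates arachidonic acid, ran through 6.43, 13.1 and 46.5 CPM in Control_Rosa26KO and 1.88, 4.71 and 6.37 CPM in HFD_Rosa26KO, as lowest, median and highest. In p53KO it ran through 3.47, 8.49 and 24.96 CPM on control diet and 1.61, 3.42 and 8.30 CPM on HFD. The Rosa26KO groups were separate by a narrow margin and the p53KO groups overlapped. It fell by 1.74 ± 0.333 (SE) averaged over genotypes (adjusted p = 0.00209, edgeR) and by 1.98 ± 0.484 in Rosa26KO (adjusted p = 0.0388). No 75-base window of its exons was identical in another gene.

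Of 6 pericentral Cyp2 genes, all tested, 1 fell (Cyp2c29) and 0 rose averaged over genotypes, with a median log2 fold change of -0.23. The median was -0.56 in Rosa26KO and 0.09 in p53KO. Cyp2e1 (chr7:140763739-140774987, plus strand) ran through 2336, 4840 and 7909 CPM in Control_Rosa26KO, 3029, 3457 and 5585 in HFD_Rosa26KO, 1250, 3948 and 6793 in Control_p53KO and 2078, 4069 and 8450 in HFD_p53KO. Its groups overlapped throughout, and its log2 difference for diet was -0.10 ± 0.259 (SE), with an adjusted p of 0.864 in edgeR. Cyp2f2 (chr7:27119909-27133660, plus strand), a periportal enzyme, ran through 765, 1442 and 1651 CPM in Control_Rosa26KO, 934, 1272 and 1633 in HFD_Rosa26KO, 626, 1291 and 1453 in Control_p53KO and 948, 1481 and 1919 in HFD_p53KO. It overlapped likewise, at 0.12 ± 0.142 (adjusted p = 0.671, edgeR). Of 12 pericentral genes outside the family, Cyp1a2 fell by 1.06 and 0 rose.

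A list of 8 Cyp2 epoxygenases, which act on arachidonic acid, held Cyp2c44 and the Cyp2j genes. It did not hold the other Cyp2c genes, such as Cyp2c29, and so is not a full account of this activity. Of the 8, 4 were tested (Cyp2c44, Cyp2j5, Cyp2j6 and Cyp2j9), 1 rose (Cyp2j6) and 1 fell (Cyp2c44). Cyp2c44, which RefSeq lists as Cyp2c23 (chr19:44005022-44029256, GRCm38.p6), ran through 345, 382 and 497 CPM in Control_Rosa26KO, 157, 238 and 401 in HFD_Rosa26KO, 296, 373 and 502 in Control_p53KO and 172, 250 and 418 in HFD_p53KO. Its groups overlapped, in Rosa26KO through HFD_Rosa26KO 6 alone. It fell by 0.59 ± 0.145 (SE) averaged over genotypes (adjusted p = 0.0113, edgeR), a call lost without libraries 1941 to 1948, at -0.65.

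Cyp2j6 (chr4:96516138-96553661, minus strand) moved least of the 10. It ran through 63.3, 72.5 and 85.9 CPM in Control_Rosa26KO, 81.2, 82.9 and 101 in HFD_Rosa26KO, 40.1, 73.3 and 97.4 in Control_p53KO and 90.4, 94.8 and 110 in HFD_p53KO. The HFD groups were higher in median and overlapped the control groups in both genotypes. The rise was 0.31 ± 0.0981 (SE; adjusted p = 0.0451, edgeR), and it passed in 7 of the 25 fits that leave out 1 library (Control_Rosa26KO 2 and 5, Control_p53KO 1, 3, 4 and 6, HFD_p53KO 7), with adjusted p up to 0.0884 in the others. It also lost its call without a filter on low counts and without the libraries high in acute phase genes or named 1941 to 1948.

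Cyp2r1 (chr7:114549682-114562972, minus strand), which makes calcidiol from vitamin D, ran through 13.8, 18.2 and 21.1 CPM in Control_Rosa26KO and 9.37, 11.7 and 13.6 CPM in HFD_Rosa26KO. In p53KO it ran through 10.2, 17.0 and 19.3 CPM on control diet and 9.32, 13.8 and 14.9 CPM on HFD. The Rosa26KO groups did not overlap, although the highest HFD library lay just below the lowest control library. It fell by 0.49 ± 0.105 (SE) averaged over genotypes (adjusted p = 0.00472, edgeR) and by 0.63 ± 0.152 in Rosa26KO (adjusted p = 0.0354), while in p53KO the difference was -0.34 ± 0.146 (adjusted p = 0.195). Of 5 Cyp2 genes known mainly from other tissues, 2 were tested (Cyp2g1 and Cyp2s1) and 0 passed.

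Of the proteins that serve these enzymes, few moved with diet. Among 5 electron donors, Cyb5r3, cytochrome b5 reductase, fell by 0.46 (adjusted p = 0.0238, edgeR) and the other 4 did not pass, including Por, P450 reductase, at -0.15 (adjusted p = 0.585). Among 12 genes of haem synthesis and breakdown, Ppox fell by 0.31 (adjusted p = 0.00634) and 0 rose, while Alas1, the rate-limiting enzyme of haem synthesis, stood at 0.36 (adjusted p = 0.238). Of 23 transcription factors known to regulate P450 genes, 0 passed in either direction in edgeR.

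In Rosa26KO alone, 4 of 37 genes passed, which is 10.8%, against 1.51% of all genes (0.446% higher, 1.06% lower). Cyp2b13 rose and Cyp2b10, Cyp2c55 and Cyp2r1 fell. With the diet groups of 6 against 6 fully separate, Cyp2b13 was higher, against 1.2% of all genes, and Cyp2b10, Cyp2c29, Cyp2c55, Cyp2r1 and Cyp2u1 were lower, against 1.81% of all genes. Cyp2u1, a fatty acid hydroxylase, stood at 14.9 ± 6.51 CPM on control diet and 4.80 ± 0.821 CPM on HFD (SD, n = 6 each), with an adjusted p of 0.0654 in edgeR. Without the libraries named 1941 to 1948 none of these 4 passed, and in limma voom Cyp2b10 alone did. The number of calls fell to 2 without any of Control_Rosa26KO 4 and 5 and HFD_Rosa26KO 1, 2, 3 and 5. The call of Cyp2c55 was lost without any of Control_Rosa26KO 2, 4 and 5 or of the 6 HFD_Rosa26KO libraries, and that of Cyp2r1 without any of Control_Rosa26KO 1, 3, 4 and 5 and HFD_Rosa26KO 1, 2, 3, 5 and 6.

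In p53KO alone, 0 of 37 genes passed in edgeR, against 2.87% of all genes (1.62% higher, 1.25% lower), with 13 at an unadjusted p under 0.05 (35.1%, against 18.8% of all genes) and a smallest adjusted p of 0.0510 (Cyp2c29). DESeq2 called 7 and limma voom 1. The diet groups were separate for 0 genes, against 0.644% of all genes higher and 0.41% lower. The count moved with single libraries: 6 passed without Control_p53KO 4, all higher on HFD (Cyp2a22, Cyp2a4, Cyp2a5, Cyp2b13, Cyp2b9 and Cyp2j6). The count was 3 without Control_Rosa26KO 2, 2 without Control_p53KO 1, Control_p53KO 3 or HFD_p53KO 7, and 1 without HFD_Rosa26KO 6 or HFD_p53KO 5.

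**Figure D3:**
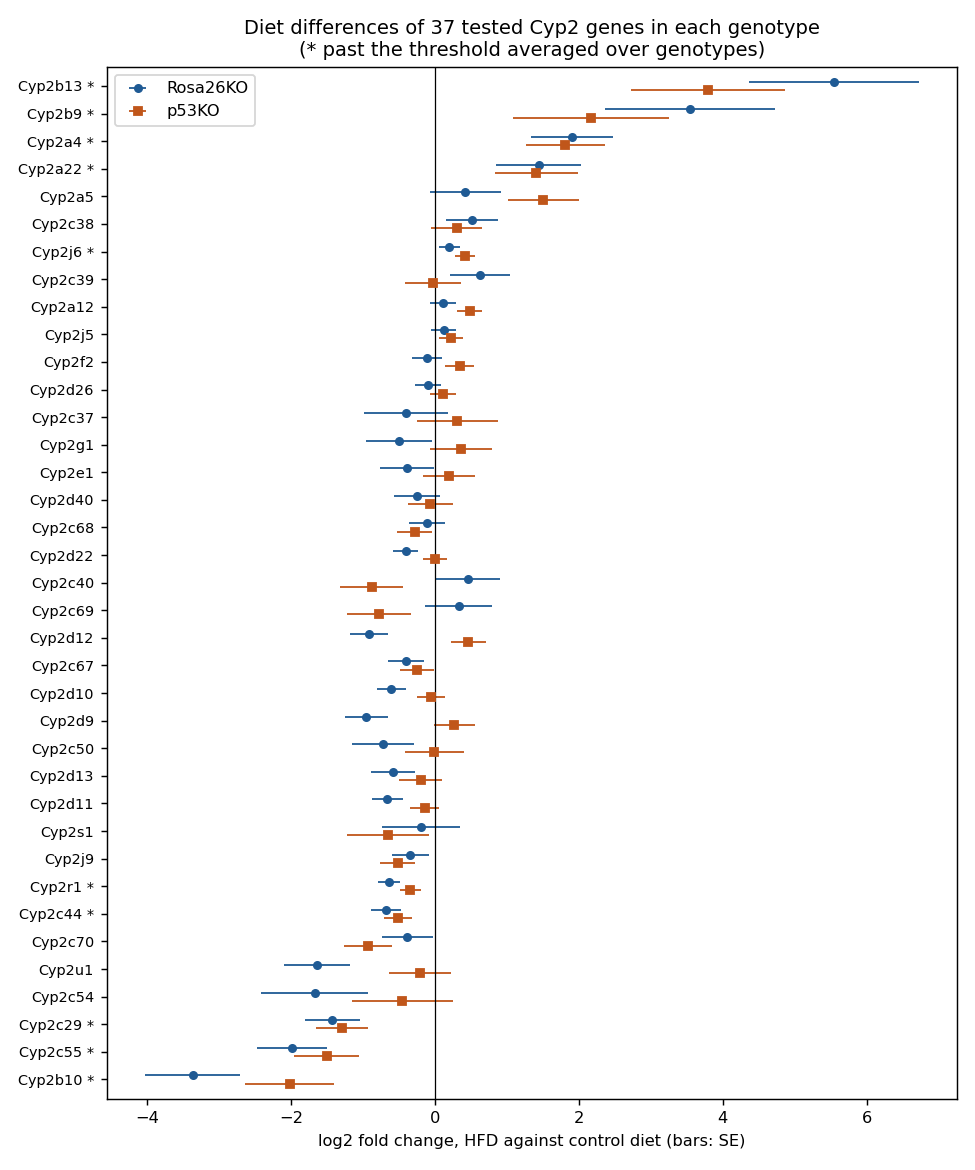
Log2 fold change of each of the 37 tested Cyp2 genes for HFD against control diet, with circles for Rosa26KO and squares for p53KO and bars for the SE, and an asterisk at genes that passed averaged over genotypes. The estimates of the 10 genes with an asterisk lie on the same side of 0 in both genotypes. Those of several other genes, among them Cyp2d9, Cyp2d12, Cyp2e1, Cyp2f2 and Cyp2c40, lie on opposite sides.

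Whether the diet effect differed between genotypes was tested by the interaction (the log2 fold change for HFD in p53KO less the one in Rosa26KO). In edgeR 0 of 37 genes passed, against 0.0% of all genes, and 4 were at an unadjusted p under 0.05 (10.8%, against 8.64% of all genes), with 0 called in DESeq2 and 0 in limma voom. These 4 were Cyp2d9 at 1.22 ± 0.415 (adjusted p = 0.560), Cyp2d12 at 1.38 ± 0.359 (adjusted p = 0.462), Cyp2u1 at 1.43 ± 0.625 (adjusted p = 0.570) and Cyp2c40 at -1.33 ± 0.629 (adjusted p = 0.572; all SE). Cyp2d9 (chr15:82433437-82456845, plus strand) ran through 270, 725 and 1016 CPM in Control_Rosa26KO, 272, 324 and 528 in HFD_Rosa26KO, 251, 553 and 840 in Control_p53KO and 426, 655 and 1059 in HFD_p53KO. HFD_Rosa26KO thus held the lowest median, and all groups overlapped.

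Between genotypes no Cyp2 gene passed the test. In edgeR the count was 0 of 37 on control diet, on HFD and averaged over diets, against 0.0% of all genes each, and DESeq2 and limma voom also called 0. At an unadjusted p under 0.05 there was 1 gene on control diet (Cyp2b10), 2 on HFD (Cyp2d9 and Cyp2d12) and 1 in the average (Cyp2b10). These are 2.7%, 5.41% and 2.7% of the 37 genes, against 9.96%, 3.6% and 4.05% of all genes. Cyp2b10 on control diet had a log2 fold change of -1.59 ± 0.600 (SE) in p53KO against Rosa26KO, with an adjusted p of 0.471 in edgeR. Cyp2d12 on HFD was at 4.44 ± 1.25 CPM in p53KO (SD, n = 7) and 2.16 ± 0.804 CPM in Rosa26KO (SD, n = 6), with an adjusted p of 0.9998 in edgeR. For no gene were the genotype groups separate, on either diet, against 0.113% higher and 0.17% lower of all genes on control diet and 0.0778% and 0.0708% on HFD.

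Single libraries stood apart from their groups in many members. HFD_Rosa26KO 6 and HFD_p53KO 7 were the lowest of their groups for Cyp2a22, Cyp2a4, Cyp2b9, Cyp2b13, Cyp2b10 and Cyp2c55 alike, so both rising and falling genes were low there. They were not low throughout. HFD_Rosa26KO 6 was the lowest of its group for 10 of the 37 genes and the highest for 9, among them Cyp2c44. HFD_p53KO 7 was the lowest for 9 and the highest for 8, among them Cyp2r1 and Cyp2d9. HFD_Rosa26KO 6 is also the library with 385 CPM of neutrophil markers; the part of this in its Cyp2 levels was not tested. Control_p53KO 4 was the highest of its group for 21 of the 37 genes and Control_Rosa26KO 5 for 24, while Control_Rosa26KO 1 was the lowest for 20 and Control_p53KO 3 for 18. The library names fall into 3 runs, each with libraries of all 4 groups. Within the 6 combinations of run and genotype the difference of mean log2 CPM between diets was above 0 in 6 of 6 for Cyp2b13 (2.58 to 6.89), Cyp2b9 (2.65 to 6.27), Cyp2a4 (0.59 to 2.73), Cyp2a22 and Cyp2j6. It was below 0 in 6 of 6 for Cyp2c29 (-1.91 to -0.76), Cyp2c44, Cyp2c55 and Cyp2r1, and in 5 of 6 for Cyp2b10.

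**Figure D4:**
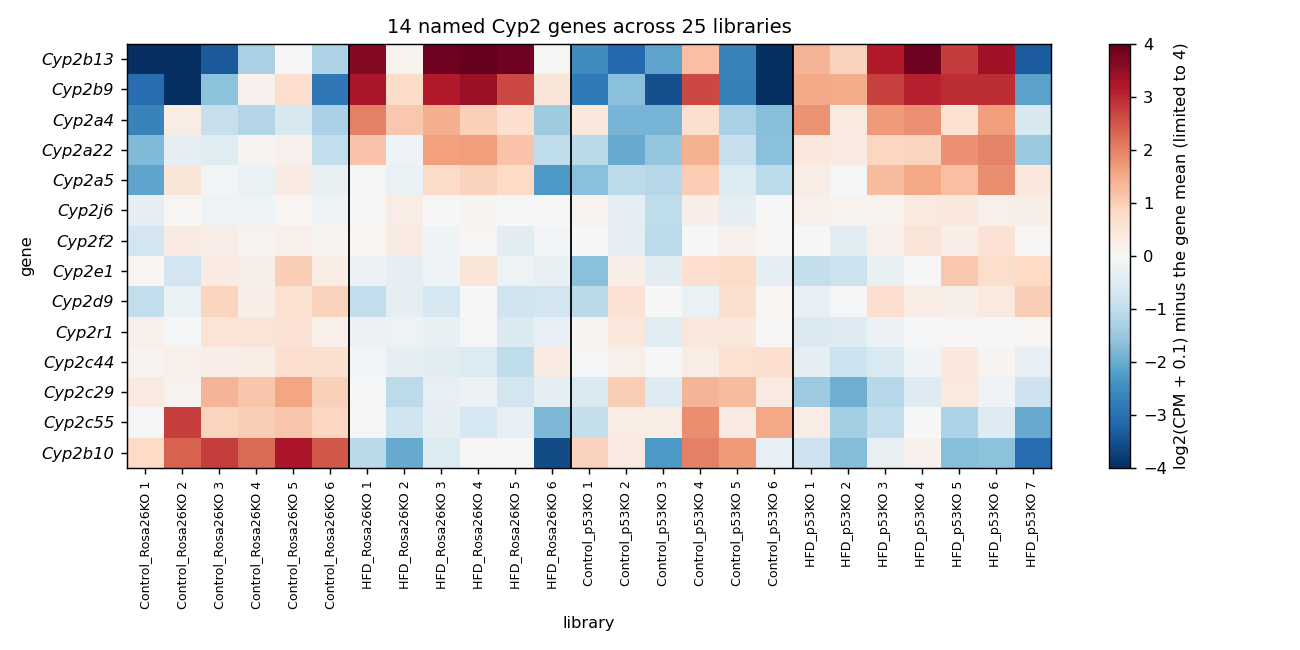
Level of the 14 Cyp2 genes described by library, as log2(CPM + 0.1) minus the gene's mean over the 25 libraries, with the colours limited to -4 and 4 and lines between the 4 groups. Cyp2b13 and Cyp2b9 are high in all HFD libraries except HFD_p53KO 7 (with HFD_Rosa26KO 2 and 6 near the mean), and Control_p53KO 4 is the control-diet library highest in Cyp2b9.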

How the data were processed

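Polyadenylated RNA from 25 mouse livers was read as 75-base pairs, per the labels. The values used are raw read counts per gene, which the authors deposited as 1 table. Per the submitters' processing notes, STAR, HOMER and the build GRCm38/mm10 were used. How strand and multi-mapped reads were treated, the annotation and versions were not given in the sources used here. Reads of close copies or antisense partners may therefore be shared.

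Genes were kept by filterByExpr (minimum count 10, minimum total 15) and scaled by TMM in edgeR 4.0.16. A robust quasi-likelihood model with 1 mean per group was fitted to all 25 libraries and 14133 genes, in 7 comparisons. P-values are two-sided, were adjusted by Benjamini-Hochberg at 0.05, and measure the spread between these samples. The SE of a log2 fold change was derived from the test, as its absolute value divided by the square root of the F statistic. The procedure was tested on simulated data, in which the only changes were diet changes shared by both genotypes. The simulation held no difference between genotypes, so it cannot show whether such differences would be found.

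Full values are given for genes past the threshold in any comparison and for Cyp2e1, Cyp2b9, Cyp2b10, Cyp2b13, Cyp2a4, Cyp2a5, Cyp2c29, Cyp2d9 and Cyp2f2. The members and lists were chosen with earlier results of these data known. Markers of 8 liver and blood cell types were summed. Alternatives were RLE scaling, no filter, DESeq2 1.42.0, limma voom (3.58.1), terms for replicate number and for runs of library names, and each library left out. The labels do not call these runs batches. Positions are from GENCODE M21 on GRCm38, and sequences and the position of Cyp2c44 from RefSeq (GRCm38.p6). R 4.3.3 and Python 3.11.15 were used.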

Additional observations from a re-analysis of the deposited data

Results flagged for a closer look

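Within each of the 4 groups, the 14 Cyp2 genes given in full were searched for a library far from the rest of its group (Dixon's criterion at 95%). Of 56 combinations of gene and group, 8 held one. The criterion gives about 1 in 20 by chance only for independent, normally distributed values. These combinations share libraries and their CPM were not checked for a normal spread, so no excess over chance can be read from the count. In Control_p53KO 4 the levels stood far above the other 5 libraries for Cyp2a22 (44.5 CPM, next 8.80), Cyp2a5 (610 CPM, next 207), Cyp2b13 (6.44 CPM, next 0.553) and Cyp2b9 (205 CPM, next 10.2). In Control_Rosa26KO 2, Cyp2c55 stood at 46.5 CPM with the next library at 14.8. In HFD_Rosa26KO 4, Cyp2e1 stood at 5580 CPM with the next at 3550. In HFD_Rosa26KO 2, Cyp2j6 stood at 101 CPM with the next at 88.0. In Control_Rosa26KO 1, Cyp2f2 was low, at 765 CPM with the next at 1390. Of the 8 values, 4 lie in 1 library, Control_p53KO 4.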

How the results depend on the processing

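No log2 fold change of a gene that passed changed sign under any alternative: of 476 values, 414 stayed past the threshold and 62 did not. For diet averaged over genotypes (10 calls), the count was 8 to 12 with 1 library left out and 16 without the libraries high in neutrophil markers. For diet in Rosa26KO (4 calls), it was 11 in DESeq2, 1 in limma voom, 9 with a term for runs of library names, 2 to 6 with 1 library left out, 8 without the libraries high in neutrophil markers, 2 without those named 1941 to 1948 and 8 without those high in acute phase genes. For diet in p53KO (0 calls), it was 7 in DESeq2, 1 in limma voom, 4 with the term for runs, 0 to 6 with 1 library left out and 3 without the libraries high in neutrophil markers. Settings that leave out several libraries were chosen after seeing the data. Cyp2b13 lost its average call in limma voom, and Cyp2b9 stood at 4.37 there. The causes were not tested. The genotype and interaction counts were 0 in every alternative run.

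A replicate block (a term for the number of each sample in the labels) gave 15 calls for diet averaged over genotypes, 8 in Rosa26KO and 6 in p53KO, and 0 for the genotype comparisons and the interaction. Deviations of same-numbered samples correlated between -0.398 and 0.604 (median 0.071, over 0.1 in 17 of 36 pairs). Those of other samples from different groups correlated between -0.592 and 0.655 (median -0.0145, over 0.1 in 60 of 198 pairs). Whether the numbers pair the samples was not tested. HFD_p53KO 7 has no partner and adds nothing to the replicate block. At low levels depth limits the values: the lowest Cyp2b13 levels on control diet were 0 counts.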
